A study of Rattus norvegicus with 8 samples.

Results

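Interferon-stimulated genes are the genes that cells switch on after they sense an interferon. The set described here held 37 rat genes chosen by name for that property. Of the 37, 30 were classed as typical of the response to type I interferon and 7 (Irf1, Irf8, Ifi47, Gbp2, Gbp5, Igtp and Irgm) as typical of the response to interferon-gamma, though many respond to both. A probe was named for 35 of them, among 15637 genes with a named probe, and 32 were bright enough to be tested among 12411 genes tested. The type I class had 25 tested members of 28 with a probe, and the interferon-gamma class had 7 of 7.

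The samples were kidneys of male rats aged 10 weeks, taken at day 28 after saline (n = 4) or after colistin at 30 mg/kg (n = 4). Colistin, an antibiotic of the polymyxin class, can injure kidney tubules, and the study compared kidney gene expression with and without it. No strain, dosing schedule or genetic change is named for either group. Total RNA from each sample was amplified to cDNA, labelled with the dye Cy3 and hybridised to its own array. Whether the 4 samples of a group are 4 animals is not stated in words, so the tests speak of the spread among these samples, which may be technical in part.

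Type I interferons bind a receptor shared by many cell types and activate a complex that includes STAT2 and IRF9 and binds a DNA element called the interferon-stimulated response element (ISRE). Interferon-gamma binds another receptor and acts through a DNA element called the gamma-activated site (GAS). The induced proteins sense foreign or misplaced nucleic acid, block viral replication, modify other proteins, or sustain and shut off the signal. In the kidney they can be made by tubule cells, endothelium and resident leukocytes.

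Of the members, 1 passed the test. Parp14 rose 7.94-fold after colistin, and no member fell by the test. The ADP-ribosylation genes Parp9, Parp14 and Dtx3l, and the 5 tested members of the group of other interferon-induced proteins (Ifi27, Ifi35, Ifi44, Ifi44l and Rtp4), all had positive fold changes, although Dtx3l and Ifi44l turned negative under another background correction (normexp). Mx1, Mx2 and Ifit3 had negative ones. The transcription factors that carry the type I signal, Stat2, Irf9 and Irf7, differed by less than the spread between arrays.

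By count, 1 of the 32 tested members (3.13%) passed at an adjusted p of 0.05 in limma, against 2.00% of all genes tested. In the upward direction the background was 1.46%, and in the downward direction, where 0 members passed, it was 0.540%. At an unadjusted p under 0.05 in limma, 11 members were higher and 5 lower (16 in all, 50%), against 10.5% and 12.2% of all genes (22.7% in all). Every colistin array lay above every saline array for 9 members (28.1%), against 6.89% of all genes. Every colistin array lay below every saline array for 3 members (9.38%), against 11.7% of all genes, so 12 members in all (37.5%) did not overlap, against 18.6%. Fold changes were positive for 18 of the 32 members, against 45.1% of all genes. The median log2 fold change, colistin minus saline, was 1.12 over the type I class (16 positive, 9 negative), -0.14 over the interferon-gamma class (2 positive, 5 negative) and -0.14 over all genes tested. These medians describe the lists and carry no test of their own. With the mean of all kept probes of a gene in place of 1 probe, they were 1.12 for type I and 1.10 for interferon-gamma. The difference between the classes therefore depends on the probes used.

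Many members were dim, and a dim gene could enter the test through its brighter group alone, so counts over the tested members are a description and support nothing by themselves. Of the 32 tested, 18 (56.3%) were well above background on all 8 arrays, against 74.6% of all genes tested. Over these 18 bright members the median log2 fold change was -0.12, with 8 positive and 10 negative, and 3 did not overlap in each direction (33.3% in all). Among genes equally bright, 21.0% did not overlap, 6.52% upward and 14.5% downward. Over the other 14 members the median was 2.44, with 10 positive and 4 negative. The type I median over its 14 bright members was 0.17. The spread was also wide: the median standard error (SE) of a member's log2 fold change was 0.84, against 0.56 over all genes.

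Arrays of the treatment groups differed in brightness as a whole. The 75th percentile of signal lay between 156 and 197 on the saline arrays and between 271 and 317 on the colistin arrays. The share of spots well above background lay between 69.3% and 75.8% with saline and between 79.1% and 83.9% with colistin. Among the tested members, 25 of 128 saline values (19.5%) and 10 of 128 colistin values (7.81%) were not well above background. On each slide the saline arrays occupied position 1 or 2 and the colistin arrays position 3 or 4, so position and treatment cannot be told apart. Levels below are log2 signal minus the array's 75th percentile, so a value of 0 lies at that percentile and a step of 1 is a doubling. Errors after ± are the SE of a log2 fold change unless called otherwise.

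**Figure D1:**
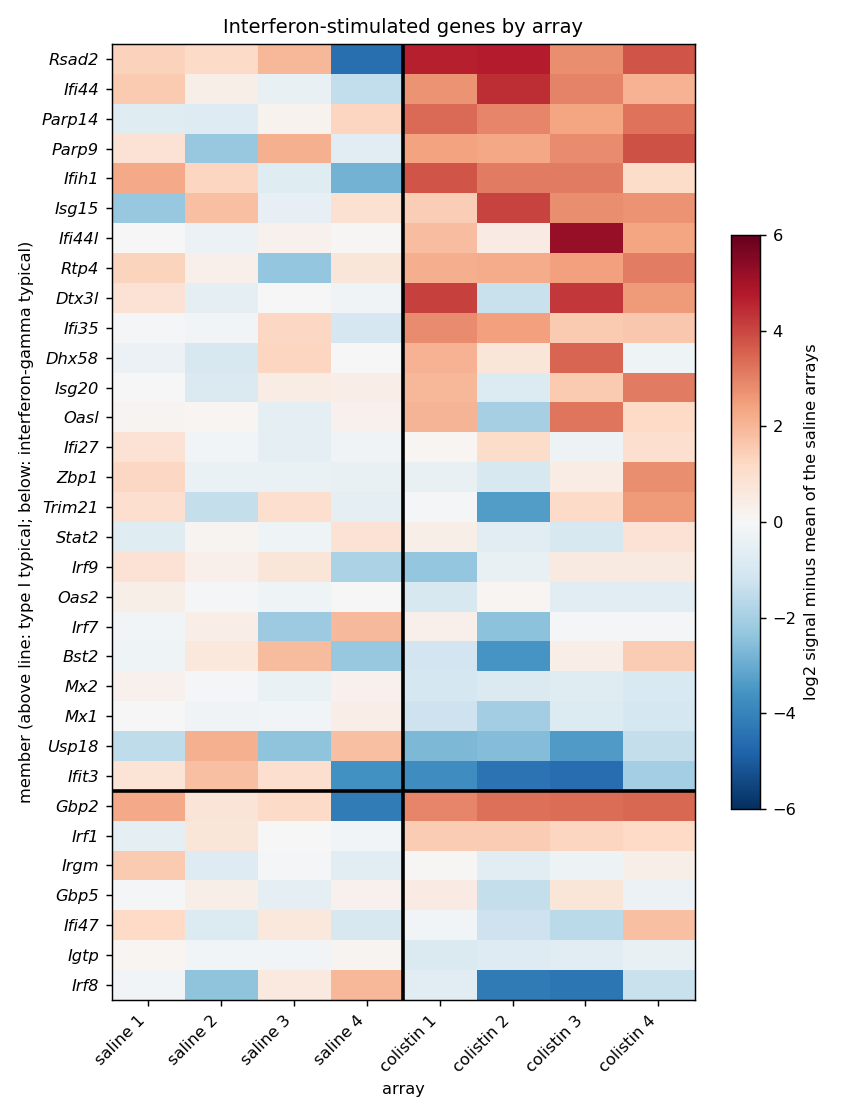
Log2 signal of each of the 32 tested members on each of the 8 arrays (columns), minus that gene's mean over the 4 saline arrays; red is higher, blue lower, and the horizontal line separates type I typical members (above) from interferon-gamma typical members (below). Rsad2, Ifi44, Parp14 and Gbp2 are red on all 4 colistin arrays, Mx1, Mx2 and Igtp are blue on all 4, and colistin array 2 is blue for several members that are red on the other colistin arrays.

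The promoters of the members were examined first, because the DNA elements through which interferons act are short and can be read in them. Windows from 250 bases before to 50 bases after the annotated start, from RefSeq on the rat assembly GRCr8, were available for 28 members. The ISRE core was searched on both strands as 2 copies of GAAA separated by 2 bases of any kind (copies of TTTC when read from the other strand), and was found in 18 of the 28 (64.3%), against 3.92% of all 33469 rat promoters of the same length. The GAS was searched as TTCNNNGAA, which reads the same on both strands, and was found in 10 of the 28 (35.7%), against 8.87% of all promoters. In the type I class 14 of 21 windows held an ISRE core and 5 a GAS, and in the interferon-gamma class 4 of 7 held an ISRE core and 5 a GAS. Members with and without either motif covered overlapping ranges of response. Among tested members the median log2 fold change was 0.97 over 16 with an ISRE core (10 positive, 6 negative) and -0.11 over 9 without (4 positive, 5 negative), each with a range crossing 0. With a GAS it was -0.31 over 9 (3 positive, 6 negative) and without one 1.29 over 16 (11 positive, 5 negative), again with ranges crossing 0. A match is a description of letters and not a sign of binding.

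The promoter of Parp14, the member that passed the test, is shown whole because it holds both elements side by side. It lies at chr11:78407884-78408183 on the plus strand of GRCr8, and the capitals mark the GAS match and then the ISRE match.

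Parp14: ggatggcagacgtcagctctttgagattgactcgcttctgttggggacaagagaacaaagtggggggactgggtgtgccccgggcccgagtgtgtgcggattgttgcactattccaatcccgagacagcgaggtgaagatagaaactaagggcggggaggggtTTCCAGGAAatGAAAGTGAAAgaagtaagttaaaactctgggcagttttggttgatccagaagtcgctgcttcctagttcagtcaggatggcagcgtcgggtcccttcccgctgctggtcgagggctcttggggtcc

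In this window the GAS begins 87 bases and the ISRE core 76 bases before the start, with a gap of 2 bases between them. The arrangement, a GAS followed after 2 bases by an ISRE core, was searched on both strands after it had been noticed here and occurred in 7 of the 33469 promoters (0.0209%), and 3 of these were members: Parp14, Igtp and Irgm. The other 4 were Irgm2, Ifgga2l2, Stra8 and an unnamed locus. The 3 member copies are set side by side, at chr11:78408037-78408077 (plus), chr10:42874923-42874963 (plus) and chr10:33742593-33742633 (minus), each written in the direction of its gene with both matches in capitals.

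Parp14: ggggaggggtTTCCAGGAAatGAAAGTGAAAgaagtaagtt
Igtp: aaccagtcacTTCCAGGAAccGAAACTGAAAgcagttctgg
Irgm: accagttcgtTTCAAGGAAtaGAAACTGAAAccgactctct

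Parp14 and Igtp share the letters of their GAS, and Igtp and Irgm share those of their ISRE core. With this arrangement the log2 fold change was 2.99 for Parp14, -0.70 for Igtp and -0.14 for Irgm. A second probe of Igtp gave 2.94 ± 1.61, and the value of Irgm was smaller than its SE (0.56). No contrast between these genes is therefore read from the arrangement.

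The ISRE cores of 5 further members, chosen after their values were seen to span the range of responses, are shown with 15 bases on either side and the core in capitals. Ifi44 (chr2:243303842-243303881, minus), Rsad2 (chr6:48788243-48788282, minus) and Gbp2 (chr2:234005681-234005720, plus) had positive fold changes. Ifit3 (chr1:241527267-241527306, plus) and Irf7 (chr1:205800068-205800107, minus) had negative ones, that of Irf7 smaller than its SE (-0.57 ± 0.95). The GAS of Irf1 (chr10:38417778-38417816, plus), the only one of the 2 motifs in its window, is shown in the same way.

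Ifi44: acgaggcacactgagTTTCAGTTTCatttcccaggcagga
Rsad2: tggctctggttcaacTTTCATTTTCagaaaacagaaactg
Gbp2: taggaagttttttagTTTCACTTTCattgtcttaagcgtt
Ifit3: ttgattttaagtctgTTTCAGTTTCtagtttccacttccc
Irf7: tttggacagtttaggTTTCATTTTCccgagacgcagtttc
Irf1: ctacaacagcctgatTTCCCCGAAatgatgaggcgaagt

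All 5 ISRE cores shown here lie on the strand opposite to the gene. This comes with the choice of genes, since those of other members, such as Parp14, Dtx3l, Ifih1 and Isg20, lie on the gene's own strand. The cores of Ifi44 and Ifit3 are the same 10 letters, although the fold changes of these genes differed in sign. Rsad2 and Irf7 likewise share the letters of the core, but the fold change of Irf7 was smaller than its SE, so its sign is not read.

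**Figure D2:**
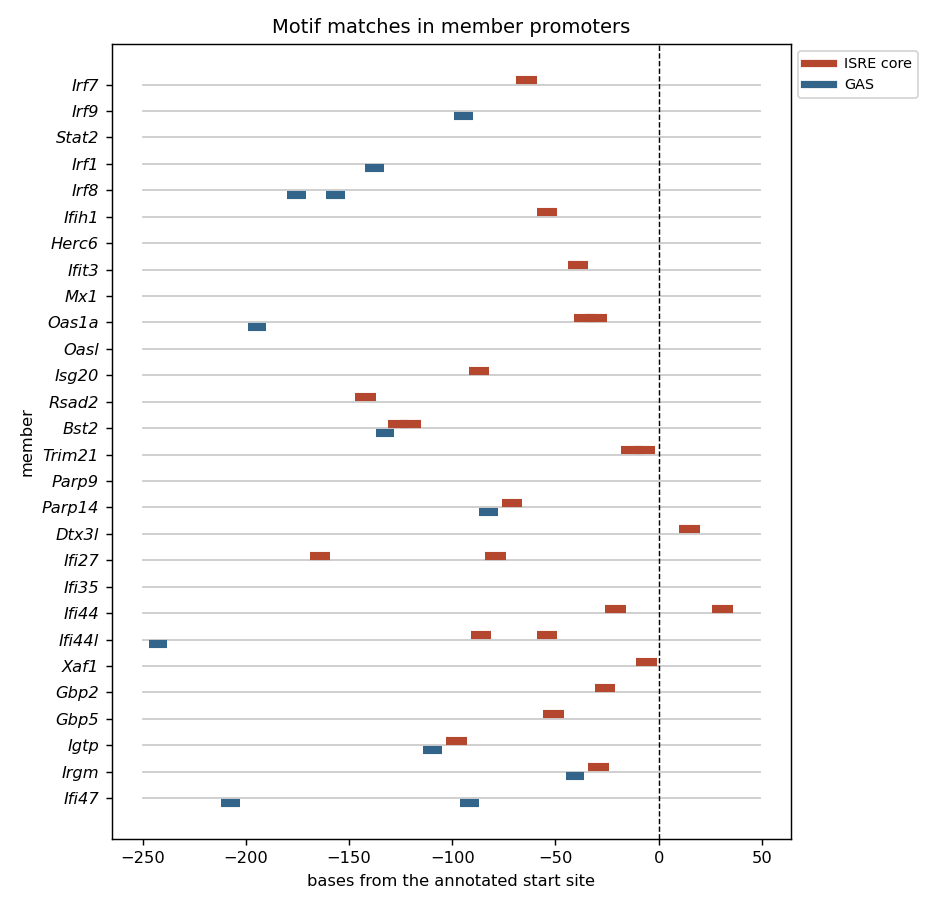
Positions of ISRE core matches (red) and GAS matches (blue) in the promoter windows of 28 members, in bases from the annotated start site (dashed line). Of the windows, 18 hold an ISRE core and 10 a GAS; in Parp14, Igtp and Irgm the matches are neighbours.

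Of the 5 transcription factors, 0 passed the test. Stat2 and Irf9, which encode parts of the complex that reads the ISRE, had levels that overlapped between groups. On the saline arrays the level of Stat2 was -1.08, -0.19, -0.60 and 0.53, and on the colistin arrays it was 0.002, -1.005, -1.30 and 0.53. The mean with colistin was 1.08-fold lower, a log2 fold change of -0.11 ± 0.53 (adjusted p = 0.915 in limma). The 4 saline values of Irf9 were -1.18, -1.77, -1.34 and -3.97, and the 4 colistin values were -4.38, -2.52, -1.54 and -1.53. This gave a log2 fold change of -0.43 ± 0.83, or 1.34-fold lower with colistin (adjusted p = 0.778 in limma). Neither group was consistently higher for either gene, and leaving out 1 array turned the sign of both (Stat2 without saline array 4, 0.18; Irf9 without colistin array 1, 0.20).

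Irf7 is the factor that amplifies type I interferon production. Irf7 stood at -2.26, -1.67, -4.28 and -0.11 on saline arrays 1 to 4 and at -1.77, -4.53, -2.14 and -2.16 on colistin arrays 1 to 4. Its log2 fold change was -0.57 ± 0.95 (SE), or 1.48-fold lower, with an adjusted p of 0.738 in limma. Colistin array 2 lay far below the other 3 colistin arrays, and without it the log2 fold change was 0.06. Irf1, a factor induced most by interferon-gamma, was the one member of this role whose groups did not overlap. On the saline arrays the level of Irf1 was 0.59, 1.92, 1.15 and 1.03, and on the colistin arrays it was 2.71, 2.69, 2.45 and 2.38. The mean with colistin was 2.61-fold higher, a log2 fold change of 1.38 ± 0.35 (adjusted p = 0.0899 in limma). All 4 colistin arrays were close together and above the highest saline array, by a difference that missed the threshold with the interval of the log2 fold change from 0.59 to 2.18. A second, dimmer probe of Irf1 gave a smaller difference of 0.82 ± 0.51 with overlapping groups. Irf8, a factor of myeloid cells and of the interferon-gamma response, had a log2 fold change of -2.64 ± 1.16 (adjusted p = 0.224) and was well above background on all 4 saline but on 2 of 4 colistin arrays.

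The nucleic acid sensors all had positive fold changes, and none passed. Ifih1 encodes MDA5, a sensor of long double-stranded RNA, and its log2 fold change was 2.78 ± 1.12 (adjusted p = 0.198), with 2 of 4 saline arrays well above background. Dhx58 encodes LGP2, which tunes the other RNA sensors, and gave 1.52 ± 0.84 (adjusted p = 0.309). Zbp1, a sensor of left-handed nucleic acid that can trigger cell death, gave 0.46 ± 0.82 (adjusted p = 0.757). Zbp1 was high on 1 array in each group, saline 1 at -1.71 and colistin 4 at -0.17, and its sign turned without colistin array 4 (-0.31).

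In the ISG15 system, Isg15 encodes a ubiquitin-like protein that is attached to other proteins, and Usp18 the protease that removes it and also damps the type I receptor. The 4 saline values of Isg15 were -4.75, -0.66, -2.95 and -1.57, and the 4 colistin values were -0.99, 1.58, 0.32 and 0.23. This gave a log2 fold change of 2.77 ± 0.92, or 6.82-fold higher with colistin (adjusted p = 0.150 in limma). The groups overlapped by colistin array 1, which lay below the highest saline array, while the other 3 colistin arrays lay above all saline arrays. Usp18 pointed the other way, with a log2 fold change of -2.53 ± 1.08 (adjusted p = 0.213), and its second probe gave -3.55 ± 1.31 with 0 of 4 colistin arrays well above background. Herc6, the ligase that attaches ISG15 in rodents, had no probe named here.

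The Mx, Ifit and Oas genes are the classical antiviral effectors. Mx1 and Mx2 are dynamin-like GTPases that trap viral components. Both were lower on every colistin array than on any saline array, as were 11.7% of all genes tested. Mx1 stood at 0.59, 0.36, 0.42 and 1.01 on saline arrays 1 to 4 and at -0.63, -1.51, -0.22 and -0.47 on colistin arrays 1 to 4. Its log2 fold change was -1.30 ± 0.37 (SE), or 2.47-fold lower, with an adjusted p of 0.110 in limma. On the saline arrays the level of Mx2 was 8.05, 7.70, 7.43 and 8.08, and on the colistin arrays it was 6.74, 6.96, 7.11 and 6.89. The mean with colistin was 1.85-fold lower, a log2 fold change of -0.89 ± 0.29 (adjusted p = 0.143 in limma). Both differences were larger than the SD within either group (0.29 with saline and 0.56 with colistin for Mx1, 0.31 and 0.15 for Mx2), and both missed the threshold. The size for Mx2 depended on the scaling: with quantile normalization its log2 fold change was -0.38 ± 0.26 (adjusted p = 0.399 in limma). Mx2 has a close copy in the rat, and whether its probe measures one or both was not checked.

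The Ifit proteins bind foreign RNA ends and block its translation. Ifit3 had a log2 fold change of -3.69 ± 1.20 (adjusted p = 0.145), the most negative of the members tested. On the saline arrays it stood at -1.20, -0.21, -1.05 and -5.69, and on the colistin arrays at -5.76, -6.48, -6.62 and -4.07. Saline array 4 fell among the colistin arrays, and without it the fit gave -4.91 ± 0.67 (adjusted p = 0.0216 in limma). Ifit3 entered the test through its saline arrays alone (3 well above background, against 2 with colistin), and the array left out is the one that opposed the others, so this is no support for a change.

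Ifit1 and Ifit2 were too dim to enter the test. Ifit1 stood at -6.82, -7.53, -6.22 and -3.12 with saline and at -8.46, -8.29, -8.15 and -7.11 with colistin, and was well above background on 1 saline array only. Ifit2 stood at -7.22, -2.36, -4.07 and -7.18 with saline and at -8.39, -8.34, -8.10 and -8.51 with colistin, and was well above background on 2 saline arrays only. Neither gene was well above background on any colistin array, so the group means give only bounds, with the saline values taken as measured. These were at least 2.52-fold lower with colistin for Ifit1 and at least 4.30-fold lower for Ifit2. Both rest on few arrays, since most saline values were themselves not well above background. The bound for Ifit1 was 1.32 without saline array 4, and the bound for Ifit2 was 2.23 without saline array 2, 6.85 without saline array 1 and 6.79 without saline array 4. Each bound sets the mean of the brighter group against a floor averaged over the arrays of the dimmer one, which on each array is the lowest signal well above background, or the probe's own signal if that is higher. The lowest signal well above background was between -6.43 and -5.93 on the saline arrays and between -7.62 and -6.77 on the colistin arrays. The order of values below it is therefore not read as expression. Each bound covers the limit of measurement in the dimmer group only, and not the spread between arrays. Values of the brighter group that were not well above background entered as measured, so a bound fails if those levels were lower. With no filter on dim probes the adjusted p in limma was 0.198 for Ifit1 and 0.129 for Ifit2.

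The Oas proteins make a second messenger that activates RNA decay. Oas2 had a log2 fold change of -0.55 ± 0.34 (adjusted p = 0.351). Oas1a was not tested, being well above background on 2 saline and 1 colistin arrays. Oasl, a relative of the enzymes, was well above background on 0 saline and 3 colistin arrays. Its saline values were -6.12, -6.16, -6.87 and -6.02 and its colistin values -4.26, -8.27, -3.09 and -5.10. Colistin array 2 was the lowest of all 8, but neither it nor any saline array was well above background. The group means gave a bound of at least 1.84-fold higher with colistin (log2 fold change 1.12 ± 0.996, interval -1.17 to 3.40, adjusted p = 0.513). That bound was 3.75 without colistin array 2 and 1.13 without colistin array 3, so no direction is read from Oasl. The Oas genes too are a family of close copies.

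Among the other antiviral effectors, Rsad2 encodes viperin, an enzyme that makes a chain-terminating nucleotide. The 4 saline values of Rsad2 were 0.88, 0.64, 1.51 and -5.03, and the 4 colistin values were 4.16, 4.19, 2.27 and 3.26. This gave a log2 fold change of 3.97 ± 1.38, or 15.7-fold higher with colistin (adjusted p = 0.161 in limma). Every colistin array exceeded every saline array, but saline array 4 lay far below the other 3 and the 95% interval was wide (0.79 to 7.14). Without that array the log2 fold change was 2.46 ± 0.55 (adjusted p = 0.0798). Isg20, an exonuclease of RNA, had a log2 fold change of 1.47 ± 0.79 (adjusted p = 0.297). Bst2, or tetherin, which holds budding virions at the membrane, gave -0.70 ± 1.23, and Trim21, a cytosolic antibody receptor and ubiquitin ligase, gave 0.06 ± 1.22. Bst2 and Trim21 ranged widely within the colistin group, with array 2 lowest for both.

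The ADP-ribosylation genes carried the set's called change. PARP14 and PARP9 are ADP-ribosyltransferases and DTX3L is the ubiquitin ligase that pairs with PARP9. Parp14 stood at 0.49, 0.44, 1.40 and 2.48 on saline arrays 1 to 4 and at 4.59, 4.11, 3.58 and 4.48 on colistin arrays 1 to 4. Its log2 fold change was 2.99 ± 0.52 (SE), or 7.94-fold higher, with an adjusted p of 0.0300 in limma. The lowest colistin array was 1.11 above the highest saline array, and the difference was positive within each of the 3 slides (2.63, 3.15 and 3.13). A second probe of Parp14 agreed in direction and did not overlap either, at 5.49 ± 1.34. The call of Parp14 by its first probe was close to the threshold. It was lost with slide as a block (2.95 ± 0.52, adjusted p = 0.0960 in limma). It was also lost when any 1 array other than saline array 4 was left out (adjusted p = 0.0574 to 0.0912 in limma). The log2 fold change lay between 2.73 and 3.41 over the 8 fits that left out 1 array.

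Parp9 was low and variable with saline and steadier with colistin. On the saline arrays the level of Parp9 was -3.33, -6.47, -2.05 and -4.85, and on the colistin arrays it was -1.76, -1.84, -1.32 and -0.37. The mean with colistin was 7.22-fold higher, a log2 fold change of 2.85 ± 0.90 (adjusted p = 0.139 in limma). The groups did not overlap, but Parp9 was well above background on 2 saline and 4 colistin arrays, and with normexp its log2 fold change was 0.56 ± 0.24 (adjusted p = 0.116). Dtx3l was well above background on no saline array. Its saline values were -5.98, -7.44, -6.86 and -7.05 and its colistin values -2.75, -8.18, -2.58 and -4.29. Of the colistin arrays, array 2 lay below all of the saline arrays and the other 3 above them. Neither colistin array 2 nor any saline array was well above background, so their order is not read as expression. The bound from the group means was at least 3.27-fold higher with colistin (log2 fold change 2.39 ± 1.17, interval -0.31 to 5.08, adjusted p = 0.261). It was 7.74 without colistin array 2 and 2.13 without colistin array 3, and normexp turned the sign (-0.12). Without colistin array 2, the array that opposed the others, the fit gave 3.63 ± 0.56 (adjusted p = 0.0423 in limma), but Dtx3l entered the test through its colistin arrays alone, so this is no support for a change. Parp9, Dtx3l and Parp14 are direct neighbours on chromosome 11, with 0 coding genes between them.

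**Figure D3:**
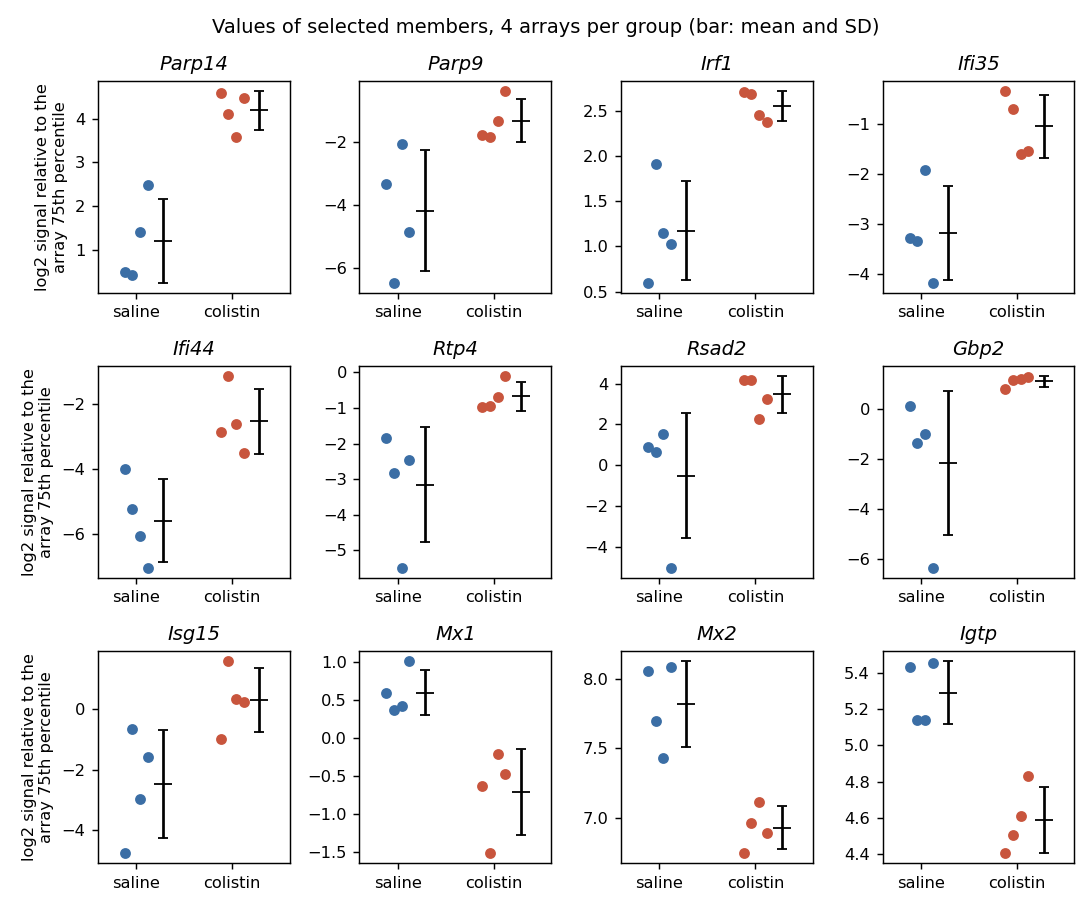
Values of 12 members on the 4 saline (blue) and 4 colistin (red) arrays, as log2 signal relative to each array's 75th percentile; the black bar is the group mean and SD. The groups are apart for every gene drawn except Isg15, upward from Parp14 to Gbp2 and downward for Mx1, Mx2 and Igtp, and saline array 4 is the low point of Rsad2 and Gbp2.

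The 5 remaining interferon-induced proteins tested all had positive fold changes. Of these, 4 were higher on every colistin array than on any saline array, as were 6.89% of all genes, and none passed. For 2 of the 4, Ifi44 and Ifi44l, most or all saline values were not well above background. Ifi35 encodes a leucine zipper protein induced by interferons. The 4 saline values of Ifi35 were -3.28, -3.35, -1.92 and -4.19, and the 4 colistin values were -0.34, -0.71, -1.61 and -1.55. This gave a log2 fold change of 2.13 ± 0.54, or 4.38-fold higher with colistin (adjusted p = 0.0929 in limma). Ifi44 and Ifi44l encode related proteins induced by type I interferon. Ifi44 stood at -4.01, -5.23, -6.05 and -7.04 on saline arrays 1 to 4 and at -2.88, -1.14, -2.61 and -3.50 on colistin arrays 1 to 4. Its log2 fold change was 3.05 ± 0.74 (SE), or 8.30-fold higher, with an adjusted p of 0.0832 in limma. Ifi44 was well above background on 1 saline and 4 colistin arrays, so its saline mean rests mostly on background signal, and with normexp its log2 fold change was 0.25 ± 0.26 (adjusted p = 0.511).

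Ifi44l, the direct neighbour of Ifi44 on chromosome 2, was well above background on no saline array. Its saline values were -7.09, -7.47, -6.88 and -7.08 and its colistin values -5.28, -6.63, -1.90 and -4.76. Colistin array 3 lay far above the others, and the group means gave a bound of at least 3.03-fold higher with colistin (log2 fold change 2.49 ± 0.89, adjusted p = 0.169). That bound was 1.61 without colistin array 3 and 4.80 without colistin array 2, and normexp, another background correction, turned the sign (-0.19). Rtp4 encodes a chaperone of receptors that also damps the interferon response. On the saline arrays the level of Rtp4 was -1.85, -2.84, -5.50 and -2.46, and on the colistin arrays it was -0.98, -0.94, -0.69 and -0.09. The mean with colistin was 5.60-fold higher, a log2 fold change of 2.49 ± 0.75 (adjusted p = 0.130 in limma). Ifi27, a small membrane protein, gave 0.47 ± 0.46 with overlapping groups, and Xaf1 had no probe named here.

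The GTPases of the GBP and IRG families, which attack the vacuoles of intracellular microbes, make up most of the interferon-gamma class. Gbp2 was the one of them whose colistin values all exceeded the saline values. The 4 saline values of Gbp2 were 0.12, -1.35, -1.001 and -6.36, and the 4 colistin values were 0.78, 1.14, 1.20 and 1.29. This gave a log2 fold change of 3.25 ± 1.26, or 9.53-fold higher with colistin (adjusted p = 0.187 in limma). The colistin values lay within 0.51 of each other, whereas saline array 4 was far below the other 3. Without that array the log2 fold change was 1.85 ± 0.42 (adjusted p = 0.0829) in limma, and without saline arrays 1 and 4 together it was 2.28 ± 0.32 (adjusted p = 0.0419). Both fits drop the saline array that lay apart from the others, and the latter rests on few saline arrays, so neither is support for a change. Igtp was lower on every colistin array than on any saline array. Igtp stood at 5.43, 5.14, 5.14 and 5.45 on saline arrays 1 to 4 and at 4.40, 4.503, 4.61 and 4.83 on colistin arrays 1 to 4. Its log2 fold change was -0.70 ± 0.27 (SE), or 1.63-fold lower, with an adjusted p of 0.182 in limma. Its groups did not overlap, yet a second probe of Igtp gave 2.94 ± 1.61, so the direction depends on the probe. The probes of Gbp5 differed in the same way (-0.14 ± 0.51 and 2.72 ± 1.73). Irgm (-0.14 ± 0.56) and Ifi47 (-0.31 ± 0.84) overlapped between groups. These families hold close copies, so the target of each probe is uncertain.

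**Figure D4:**
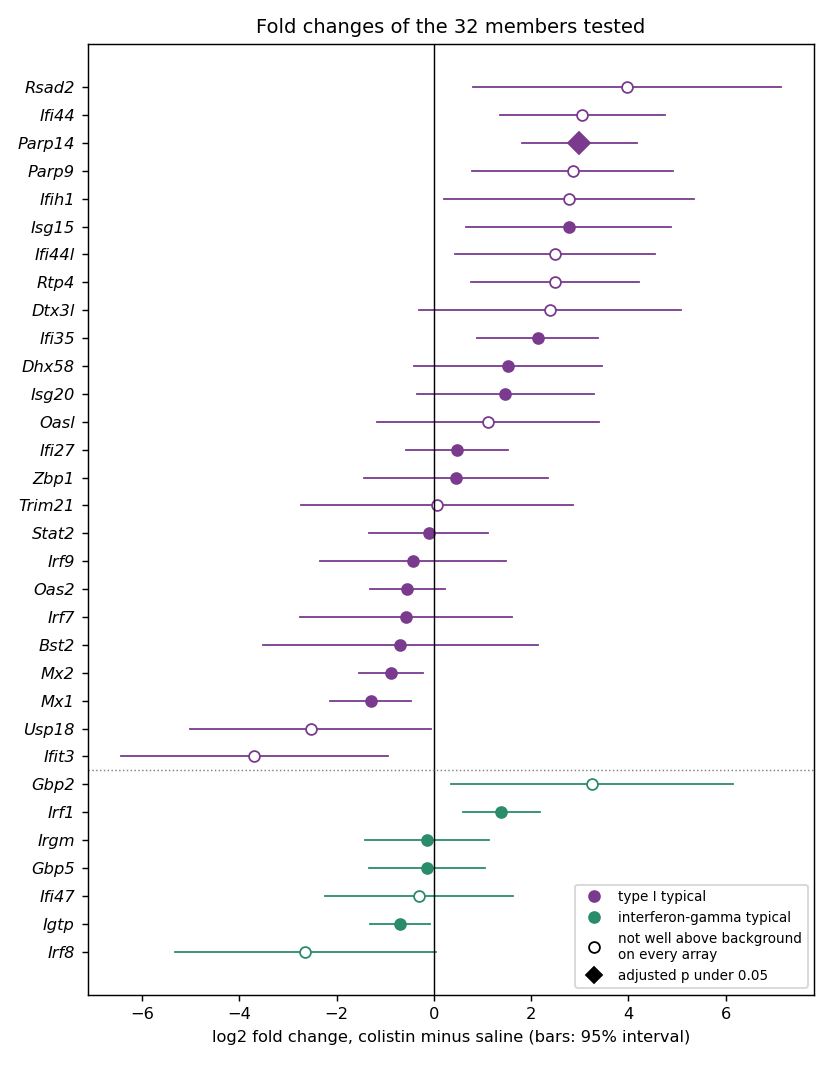
Log2 fold change (colistin minus saline) of the 32 tested members with 95% intervals, type I typical members in purple above the dotted line and interferon-gamma typical members in green below it. Open circles mark members not well above background on every array, and the diamond is Parp14, the one member past an adjusted p of 0.05; the 3 most positive type I members drawn are Rsad2, Ifi44 and Parp14, an order that holds for these values and not with normexp, under which Ifi44 was at 0.25.

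Of the 37 members, 14 sit in 6 chromosomal clusters with at most 2 coding genes between successive members. The Ifit2, Ifit3 and Ifit1 cluster was negative throughout, as were the pair Mx1 and Mx2 and the pair Irgm and Ifi47. Of these, Ifit1 and Ifit2 were too dim to be tested. The fold changes of Irgm and Ifi47 were smaller than their SE and turned positive without saline array 1 (0.38 and 0.09). The Parp9, Dtx3l and Parp14 cluster was positive throughout, as was the pair Ifi44 and Ifi44l, except that Dtx3l and Ifi44l turned negative with normexp. Gbp5 and Gbp2 differed (-0.14 and 3.25), but a second probe of Gbp5 gave 2.72 ± 1.73, so this depends on the probe. No test was made of neighbours.

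Taking each class as a whole, array by array, 1 colistin array differed from the rest. Measured against the saline mean of each gene, the type I class had medians of 0.24, -0.10, -0.18 and -0.01 on saline arrays 1 to 4 and of 1.50, -0.45, 1.56 and 1.54 on colistin arrays 1 to 4. So 3 colistin arrays lay above all saline arrays and array 2 lay below them. The saline medians lie near 0 in part by construction, because each gene's saline mean was subtracted. Some type I members also entered the test through their colistin arrays alone. Over the 14 type I members well above background on all 8 arrays, the median log2 fold change was 0.17 (7 positive, 7 negative). The interferon-gamma class had medians of 0.14, -0.15, -0.02 and -0.14 with saline and of 0.07, -0.79, -0.30 and 0.34 with colistin, with no separation. Within slides 1, 2 and 3 the type I median difference was -0.04, 1.63 and 1.08, and slide 1 was the one that held colistin array 2, beside saline arrays 1 and 4. Within the same slides the interferon-gamma median was -1.09, 0.36 and 0.27. Of the type I class, Parp14, Rsad2, Ifi44 and Isg15 lay within or above the range of the other colistin arrays on colistin array 2, so the low median there came from other members. Without saline array 4 and colistin array 2, a choice made after the values were seen, the type I median was 1.68, 1 member passed upward and 0 downward in limma.

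Of the settings tried, normexp moved the type I median most. It starts from the median spot signal in place of the scanner's processed signal, models the local background and adds an offset of 50, which draws dim values together. With it the median was -0.05, against -0.34 over all genes. Under it 5 members passed upward (Parp14, Irf1, Rsad2, Rtp4 and Gbp2), against 5.51% of all genes in that direction and 27.3% in either, and 6 passed downward (Irf8, Usp18, Ifit3, Mx1, Mx2 and Igtp), against 21.8% of all genes. Each of these 11 had the same sign in the values above. Oasl, Dtx3l and Ifi44l, the members with no saline array above background, turned negative, between -0.36 and -0.12. Other members dim with saline kept their sign but were much smaller, with log2 fold changes of 0.25 for Ifi44, 0.56 for Parp9 and 0.59 for Ifih1, while Parp14 was at 2.85.

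**Figure D5:**
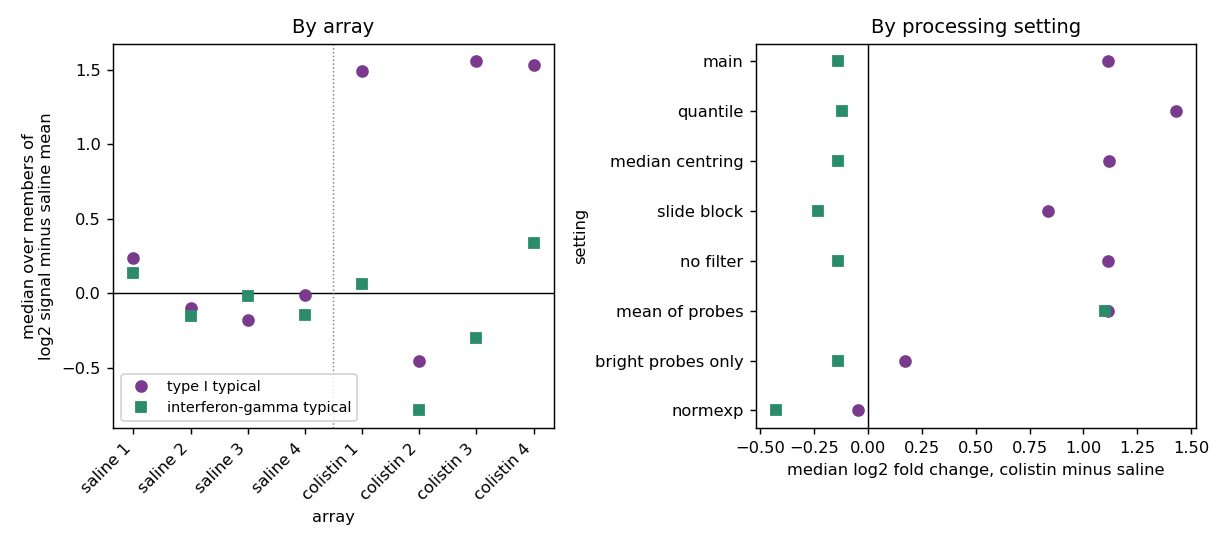
Left, median over type I typical (purple circles) and interferon-gamma typical (green squares) members of log2 signal minus each gene's saline mean, on each array; right, the median log2 fold change of each class under 8 processing settings. Type I medians are near 1.5 on 3 colistin arrays and -0.45 on colistin array 2. Over settings they fall from 1.12 to 0.17 with bright probes only and to -0.05 with normexp. With the mean of probes the interferon-gamma median is 1.10, beside 1.12 for type I.

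Among the rest of the interferon pathway no tested gene passed the threshold. Of 86 further genes in 4 lists (ligands and receptors, signalling and feedback, sensors and adaptors, and other interferon-induced genes), 54 were tested. In limma, 0 passed in either direction, with 10 higher and 6 lower at an unadjusted p under 0.05 and a median log2 fold change of 0.06. The groups did not overlap for 6 upward and 4 downward (18.5%, against 18.6% of all genes). Among the 6 were 3 genes chosen after their values were seen: Cxcl11 (3.80 ± 0.83, adjusted p = 0.0641) and Cxcl10 (2.63 ± 0.83, adjusted p = 0.137), chemokines that draw T cells, and Irf3 (2.92 ± 0.72, adjusted p = 0.0863), a factor activated by nucleic acid sensing. The 4 downward were Oas1b, Oas3, Ifitm3 and Sp100. Their log2 fold changes were -0.90 ± 0.26, -0.93 ± 0.36, -1.75 ± 0.65 and -0.93 ± 0.33. Their adjusted p in limma was 0.118, 0.187, 0.179 and 0.163. Ifnar1, a chain of the type I receptor, gave 0.92 ± 0.48 (adjusted p = 0.281), and Ifngr1, a chain of the interferon-gamma receptor, gave 0.47 ± 0.66 (adjusted p = 0.689). Adar, an RNA-editing enzyme that limits sensing of the cell's own RNA, gave -0.72 ± 1.05 (adjusted p = 0.701). The lists held 8, 13, 9 and 24 tested genes, with medians of 0.01, 0.34, 1.56 and -0.003.

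Markers of the kidney's own and of other cell types were mostly lower with colistin, and in bulk tissue fewer cells of a type and less RNA per cell cannot be told apart. Of all genes tested, 0.540% passed as lower, and 11.7% were lower without overlap. Sums below are of signal relative to the 75th percentile over the tested markers of a list, saline range first. That percentile was itself higher on the colistin arrays (271 to 317, against 156 to 197), so the sums depend on this scaling. Its part in them was not tested. Tubule markers, which define the labelled tissue, were present, with all 10 proximal tubule markers well above background on all 8 arrays, but 8 of the 10 were negative and 2 passed as lower (sums of 522 to 838 with saline and 207 to 329 with colistin). The 6 thick ascending limb, 7 collecting duct and 6 podocyte markers tested were negative in 6, 7 and 5 cases, with 1 passing as lower in each list. Their sums were 33.8 to 73.5 and 2.04 to 8.07 for the thick ascending limb, 35.5 to 50.2 and 1.50 to 16.2 for the collecting duct, and 5.01 to 17.7 and 1.52 to 2.39 for podocytes. Of 17 macrophage and monocyte markers, 14 were tested, 12 were negative and 1 passed (lower). Their sums were 34.6 to 58.3 and 16.8 to 21.9. Cd163, Mrc1 and Itgam did not pass the brightness filter. For T, B and NK lymphocytes 7 of 14 markers were tested and all 7 were negative, 1 of them past the test, with sums of 2.58 to 5.57 and 1.57 to 1.91, and Cd3e, Cd8a and Cd2 did not pass the filter. For dendritic cells 4 of 7 were tested and all 4 were negative, 0 of them past the test (1 at an unadjusted p under 0.05 in limma), with sums of 31.3 to 52.6 and 6.79 to 18.6. For endothelium 11 of 13 were tested and all 11 were negative, 4 of them past the test, with sums of 39.3 to 60.5 and 5.71 to 9.94. In none of these 8 lists did the ranges of the groups overlap, and their part in the values of the interferon members, Irf8 of myeloid cells included, was not tested.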

How the data were processed

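Each array's scanner output gave spot intensity on a linear scale as deposited by the authors, and the submitters' processing notes name Agilent Feature Extraction 10.5. Background had been corrected within arrays, with no scaling among them, per the file headers. A table of log2 values was also deposited, with its scaling and centring not given in the sources used here. Differences between its columns correlated at 0.99986 or above with those of log2 scanner signal, and all probes had a median within 0.01 of 0, so log2 scale and probe centring were found from the values. Its column medians were 0.233, 0.0232, 0.0865 and 0.196 for saline and -0.113, -0.230, -0.0893 and -0.0327 for colistin arrays 1 to 4.

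Here control and outlier spots were left out and spots of a probe averaged, giving 30367 probes. Values were log2 signal minus the array's 75th percentile. A probe was kept (23718 were) if either group had 3 or more of its 4 arrays well above background. Names came from RefSeq accessions matched to GRCr8 (18643 probes named). The kept probe with the highest mean stood for a gene, and 37 of 40 member probes were kept. Colistin and saline were compared with limma 3.58.1 in R 4.3.3 (two-sided, Benjamini-Hochberg over 12411 genes, threshold 0.05), tested on simulated data. SE is limma's, intervals are 95%, and n = 4 per group limits the precision.

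The members, classes, lists and alternatives were chosen with earlier results of these data known. Every member is accounted for by name. Values by array are given for members that passed, did not overlap or have a bound, and for Irf1, Irf7, Irf9, Stat2, Isg15, Mx1 and Gbp2 whatever their result. Ifit3 was added after its values were seen. Of the 4 pathway lists, passing genes and Ifnar1, Ifngr1 and Adar were to be named, and 1 further gene is not reported here. Motifs were matched by letters in RefSeq promoter windows. Alternatives were normexp (offset 50), quantile and median scaling, no or a stricter filter, the mean of probes, the deposited table, slide or replicate number as a block, and leaving out arrays (for the lower bounds, added after their values were seen). Dixon's criterion was used to look for single arrays standing apart. Normexp used the median spot signal in place of the mean signal planned, which the tables analysed here lack.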

Additional observations from a re-analysis of the deposited data

Results flagged for a closer look

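Among the values described, 64 groups of 4 arrays (the tested members in each treatment) and the class medians were searched for 1 array far from the other 3, and chance alone gives about 1 group in 20. Of the members' groups, 4 of 64 met the criterion, close to that rate, and each is listed with the gap to the nearest array divided by the group's range.

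Irf7 with colistin stood out at 0.859, with array 2 at -4.53 and the others between -2.16 and -1.77. Zbp1 with saline was flagged at 0.963, with array 1 at -1.71 and the others between -3.38 and -3.32. Oasl with saline was flagged at 0.838, with array 3 at -6.87 and the others between -6.16 and -6.02, where no saline array was well above background. Rsad2 with saline was flagged at 0.867, with array 4 at -5.03 and the others between 0.64 and 1.51. The median of the type I class with colistin was flagged at 0.970, with array 2 at -0.45 and the others between 1.50 and 1.56.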

How the results depend on the processing

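The count of changed genes, 248, became 3390 with normexp, 40 with slide as a block, 143 without saline arrays 1 and 4, and 95 without saline array 4 and colistin array 2 (chosen after seeing the data). It lay between 78 and 255 when 1 array was left out. The replicate numbers do not pair the samples (correlations of same-numbered arrays from -0.0205 to 0.0134, best with its own number for 1 of 4), and the replicate block left 5 genes and 0 members higher, with Parp14 at an adjusted p of 0.111. Members higher numbered 5 with normexp, 0 with slide as a block, 2 without saline arrays 1 and 4, and 0 to 1 with 1 array left out. Members lower numbered 6 with normexp and 0 to 1 with 1 array left out, the 1 being Ifit3 without saline array 4. The type I median was -0.045 with normexp, 0.17 with bright probes only and 0.73 to 1.78 with 1 array left out. The interferon-gamma median was 1.10 with the mean of all kept probes and -0.40 to 0.09 with 1 array left out. The deposited table called 249 genes, 1 member higher and 0 lower. Over members and alternatives, 541 fold changes kept sign and side of the threshold, 13 gained a call, 9 lost one and 31 changed sign.

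Signs turned with normexp for Zbp1 (-0.047), Oasl (-0.36), Trim21 (-0.045), Dtx3l (-0.12) and Ifi44l (-0.19), with the mean of probes for Gbp5 (1.29) and Igtp (1.12), and with slide as a block for Trim21 (-0.52). With 1 array left out, sign turned within the ranges of Irf7 (-1.30 to 0.088), Irf9 (-1.06 to 0.20), Stat2 (-0.44 to 0.18), Zbp1 (-0.31 to 0.93), Bst2 (-1.45 to 0.26), Trim21 (-0.77 to 1.19), Gbp5 (-0.43 to 0.30), Irgm (-0.40 to 0.38) and Ifi47 (-1.01 to 0.14). Without saline arrays 1 and 4, Irf7 was 0.33 and Irgm 0.30. Without saline array 4 and colistin array 2, Irf7 was 0.71, Stat2 0.37 and Gbp5 0.39. Fewer arrays entered these fits, and the cause was not tested. Dim signal limits the set: 14 of 32 members were not well above background on at least 1 array, and 3 with a probe could not be tested.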
